A study of Mus musculus with 2 samples.

Results

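The engrailed, Otx, Gbx and Pax2/5/8 transcription factors of the midbrain-hindbrain boundary were measured together with Cnpy1 in total RNA of the embryonic mouse hindbrain. The set held 8 of the 43346 genes listed in the deposited quantification tables, namely En1, En2, Otx2, Gbx2, Pax2, Pax5, Pax8 and Cnpy1. It was named as a list of symbols, and its members were selected on measured values of these same libraries, among them the level of each gene and the ratio between the libraries. All values below are therefore a description and carry no test.

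The midbrain-hindbrain boundary, or isthmus, is a signalling centre of the neural tube that patterns the midbrain in front of it and the cerebellum behind it. Otx2 marks the midbrain side and Gbx2 the hindbrain side, and their mutual repression sets where the boundary lies. Pax2, Pax5 and Pax8 and the engrailed genes act with the secreted ligands Fgf8 and Wnt1 to maintain the isthmus, and in zebrafish Cnpy1 promotes FGF signalling there. In later embryos most of these genes are also used elsewhere in the hindbrain, for example Pax2 and Pax8 in inhibitory neurons, En1 in V1 interneurons and Otx2 in the choroid plexus and the cerebellar rhombic lip.

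Each of the 2 libraries came from the hindbrain of Mus musculus strain B6NCrl at embryonic day 14.5, with no treatment and no genetic change given, and both form 1 group of 2 replicates with no second condition. Per the labels each hindbrain came from a single pup, although the sex is given as pooled, and both libraries carry the same donor identifier. The tissue was collected on different days, so the day of collection and the replicate cannot be told apart, and differences between the libraries measure only the spread between these samples. RNA longer than 200 nt entered each library at 10 ng, with spike-in RNAs added. In such bulk tissue, fewer cells of a type and less RNA per cell cannot be told apart.

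The estimated reads over all features summed to 33510896 in replicate 2 and 34929425 in replicate 1. The floor of 3 reads used for a count of 0 thus stood for 0.0895 CPM in replicate 2 and 0.0859 CPM in replicate 1 (CPM, reads scaled to the library total). Of 9 markers of the hindbrain, 8 had at least 1 TPM (a level per transcript length, scaled to the same total in each library) in both libraries. Egr2 was the exception, with 0.91 TPM in replicate 2 and 1.37 TPM in replicate 1. Its deposited credibility interval in replicate 2, 1.02 to 2.56 TPM, lay above that value and above 1 TPM, so this call depended on the estimate read. None of 7 forebrain markers reached 1 TPM in either library, and the highest value among them was 0.42 TPM.

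The RNA of Cnpy1 and En1 differed most between the libraries among the members at 1 TPM or more, and Otx2 RNA was divided between annotated starts. The RefSeq promoter windows of these genes on build GRCm38.p6 are therefore shown, each running 5′ to 3′ from 250 bases before a transcript start to 50 bases after it. Capitals mark the letters TAATTA, the core bound by many homeodomain proteins, and TAATCC, the OTX type of site, read on both strands, so that TAATCC on the other strand appears as GGATTA.
Cnpy1 internal start, chr5:28210119-28210418, minus strand: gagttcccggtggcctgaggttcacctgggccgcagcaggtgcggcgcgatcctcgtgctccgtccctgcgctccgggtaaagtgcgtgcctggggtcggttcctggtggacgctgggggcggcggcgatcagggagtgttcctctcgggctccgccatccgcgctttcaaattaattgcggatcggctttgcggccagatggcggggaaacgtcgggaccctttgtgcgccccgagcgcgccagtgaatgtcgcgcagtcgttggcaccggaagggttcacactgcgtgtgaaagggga
Cnpy1 upstream start, chr5:28245739-28246038, minus strand: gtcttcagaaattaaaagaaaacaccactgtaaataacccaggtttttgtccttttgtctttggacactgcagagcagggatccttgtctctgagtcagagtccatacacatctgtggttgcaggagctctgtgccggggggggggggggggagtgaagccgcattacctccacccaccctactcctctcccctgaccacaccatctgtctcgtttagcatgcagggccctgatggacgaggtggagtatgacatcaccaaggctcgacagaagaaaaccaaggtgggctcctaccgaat
En1, chr1:120602237-120602536, plus strand: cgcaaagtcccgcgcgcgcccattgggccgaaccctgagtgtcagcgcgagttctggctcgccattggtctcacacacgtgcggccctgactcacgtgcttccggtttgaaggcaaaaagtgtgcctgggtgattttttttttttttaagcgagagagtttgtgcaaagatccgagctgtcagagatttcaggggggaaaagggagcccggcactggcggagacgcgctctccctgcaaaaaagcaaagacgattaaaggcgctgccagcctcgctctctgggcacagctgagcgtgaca
Otx2 proximal start, chr14:48665060-48665359, minus strand: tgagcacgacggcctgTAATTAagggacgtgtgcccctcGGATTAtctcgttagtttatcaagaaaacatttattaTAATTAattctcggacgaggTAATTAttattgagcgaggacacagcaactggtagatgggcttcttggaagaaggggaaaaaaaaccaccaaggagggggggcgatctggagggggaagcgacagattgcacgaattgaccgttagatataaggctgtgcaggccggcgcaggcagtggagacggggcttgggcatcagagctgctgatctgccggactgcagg
Otx2 upstream start, chr14:48667459-48667758, minus strand: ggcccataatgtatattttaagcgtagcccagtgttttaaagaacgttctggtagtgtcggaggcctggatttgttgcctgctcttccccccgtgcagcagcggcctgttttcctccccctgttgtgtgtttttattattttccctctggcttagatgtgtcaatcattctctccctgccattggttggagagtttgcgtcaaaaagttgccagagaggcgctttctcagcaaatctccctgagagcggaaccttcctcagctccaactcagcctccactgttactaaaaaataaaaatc

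The proximal Otx2 window held TAATTA 3 times and TAATCC 1 time. Over all 32851 mouse promoter windows of this length in the RefSeq table, 5.29% held TAATTA and 7.06% held TAATCC. Entries were found for 7 of the 8 members, with 13 windows in all, and En2 had no entry. Otx2 was the only member with either motif, since 2 of its windows held TAATTA, 1 of these also held TAATCC (shown above; the other overlaps the upstream window), and the windows of the other 6 matched members held neither. The windows at the Cnpy1 starts differed in composition, with 66.3% G and C and 34 CpG dinucleotides at the internal start and 53% and 6 at the upstream start, against medians of 52.7% and 7 over all windows. A motif match describes these letters only.

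By level, Gbx2 came first and En2 last. The order of mean TPM was Gbx2, Pax8, Pax2, Otx2, Cnpy1, En1, Pax5 and En2, and 7 of the 8 genes had at least 1 TPM in both libraries, En2 being the exception. The replicate values of Pax2 and Otx2, of Otx2 and Cnpy1, and of Cnpy1 and En1 overlapped, so these neighbours in the order did not differ beyond their spread. The other neighbours in the order did not overlap in TPM, but by posterior mean Pax5, at 3.3 TPM in replicate 2 and 3.35 TPM in replicate 1, lay between the En1 values of 4.92 and 2.09 TPM. The 7 transcription factors summed to 91.3 TPM in replicate 2 and 95.1 TPM in replicate 1, so that their total was close in both libraries while single members differed.

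**Figure D1:**
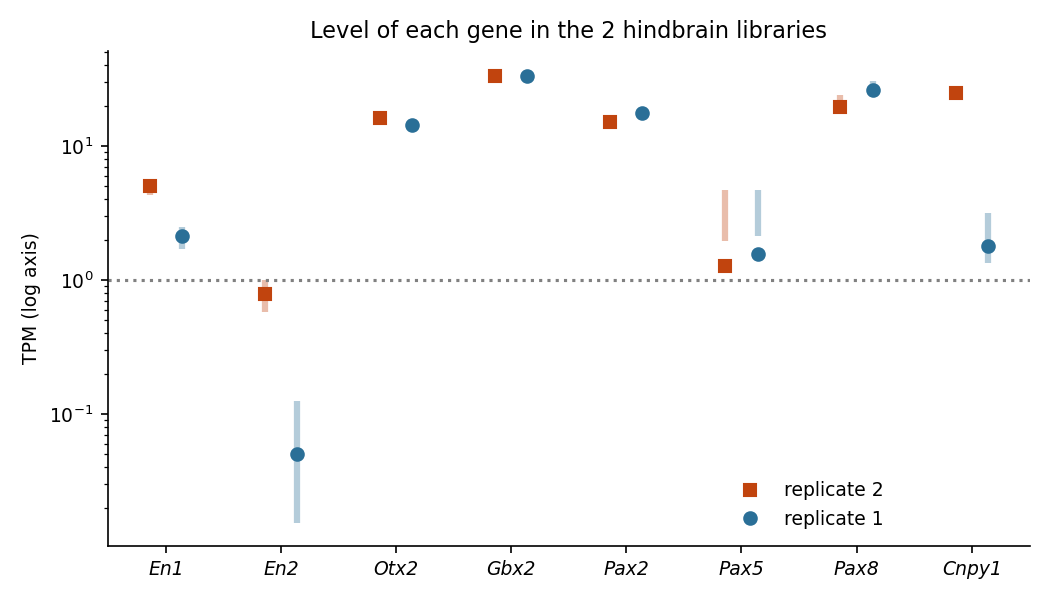
TPM of each gene on a log axis in replicate 2 (squares) and replicate 1 (circles), with the deposited credibility interval of each value as a pale bar (an interval narrower than the symbol lies behind it) and a dotted line at 1 TPM. Gbx2 lies at 33.3 and 33.4 TPM, Cnpy1 at 24.7 and 1.79 TPM, and En2 lies below 1 TPM in both libraries.

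Among the factors that set the position of the boundary, Gbx2 (ENSMUSG00000034486.8, chr1:89927956-89931179, minus strand) was measured at 33.3 TPM in replicate 2 and 33.4 TPM in replicate 1. Its mean was 33.4 ± 0.113 TPM (SD, n = 2), from 1189 and 1266 estimated reads in replicates 2 and 1. The libraries held nearly the same level of this homeobox repressor of the hindbrain side.

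Otx2 (ENSMUSG00000021848.11, chr14:48657677-48673819, minus strand), the homeobox gene of the midbrain side, had 16.2 TPM in replicate 2 and 14.2 TPM in replicate 1, from 543 and 555 reads. The mean was 15.2 ± 1.39 TPM (SD, n = 2), and the deposited credibility intervals of 14.8 to 18.2 TPM in replicate 2 and 13 to 15.9 TPM in replicate 1 overlapped. Otx2 stood at 0.486 of the Gbx2 level in replicate 2 and at 0.425 of it in replicate 1. The ratio of reads, each scaled by the reads of all genes in its library, was 1.02 for replicate 2 over replicate 1 with a 95% exact (Clopper-Pearson) counting interval of 0.902 to 1.15. For Gbx2 it was 0.976 with an interval of 0.901 to 1.06. Both intervals held a ratio of 1. These intervals cover counting error only, with 1 library on each side. Without molecular identifiers reads cannot be counted as separate molecules, so even the counting error may be larger than shown.

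The engrailed genes, homeodomain repressors needed for midbrain and cerebellar development, were low in these libraries, and both were higher in replicate 2. En1 (ENSMUSG00000058665.8, chr1:120602418-120607992, plus strand) had 5.05 TPM in replicate 2 and 2.13 TPM in replicate 1, from 249 and 115 reads. Its mean was 3.59 ± 2.06 TPM (SD, n = 2). The credibility interval of 4.33 to 5.55 TPM in replicate 2 did not meet that of 1.71 to 2.48 TPM in replicate 1, and the scaled read ratio was 2.25 (95% counting interval 1.80 to 2.83).

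En2 (ENSMUSG00000039095.8, chr5:28165694-28172166, plus strand) had 0.79 TPM in replicate 2 and 0.05 TPM in replicate 1, from 53 reads and 4 reads. Its mean was 0.42 ± 0.523 TPM (SD, n = 2), the lowest of the 8 genes. The credibility intervals of 0.58 to 0.992 TPM in replicate 2 and 0.0153 to 0.124 TPM in replicate 1 did not overlap. The scaled read ratio was 13.8, and with so few reads in replicate 1 its counting interval ran from 5.07 to 52.4. En1 exceeded En2 by 6.39 times in replicate 2 and by 42.6 times in replicate 1, on the TPM scale.

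Of the paired-domain factors, Pax8 and Pax2 were well expressed and Pax5 was near the limit of detection. Pax8 (ENSMUSG00000026976.11, chr2:24420560-24475599, minus strand) had 19.6 TPM in replicate 2 and 26.2 TPM in replicate 1, from 852 and 1162 reads, with a mean of 22.9 ± 4.67 TPM (SD, n = 2). Pax2 (ENSMUSG00000004231.11, chr19:44756045-44837871, plus strand) had 15.2 TPM in replicate 2 and 17.5 TPM in replicate 1, from 1057 and 1332 reads, with a mean of 16.4 ± 1.65 TPM (SD, n = 2). Both had the lower value in replicate 2, the opposite of the engrailed genes.

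The scaled read ratio was 0.762 for Pax8 (95% counting interval 0.697 to 0.833) and 0.825 for Pax2 (0.760 to 0.895), both below 1. The credibility intervals in TPM overlapped for Pax8, at 18.4 to 23.8 in replicate 2 and 23.2 to 30.3 in replicate 1. Those of Pax2 were separate, at 13.8 to 15.8 in replicate 2 and 16.1 to 18.1 in replicate 1. Pax8 exceeded Pax2 by 1.29 times in replicate 2 and 1.49 times in replicate 1 on the TPM scale.

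Pax5 (ENSMUSG00000014030.11, chr4:44524757-44710487, minus strand), which is also a regulator of B lymphocytes, had 1.26 TPM in replicate 2 and 1.56 TPM in replicate 1. These values rested on 24.4 and 32.4 estimated reads, and the mean was 1.41 ± 0.212 TPM (SD, n = 2). The scaled read ratio of 0.780 had a counting interval of 0.439 to 1.37, so no difference between the libraries was detectable at this depth. The deposited credibility intervals of 1.95 to 4.72 TPM in replicate 2 and 2.12 to 4.69 TPM in replicate 1 lay above the TPM values themselves, and the posterior means were 3.3 and 3.35 TPM. The level of Pax5 thus depended on which deposited estimate was read. None of 6 genes of B lymphoid cells reached 1 TPM, and the highest value was 0.73 TPM, of Cd79b in replicate 1. The 3 Pax genes summed to 36 TPM in replicate 2 and 45.3 TPM in replicate 1.

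Cnpy1 (ENSMUSG00000044681.14, chr5:28200819-28245806, minus strand), a canopy family gene, had 24.7 TPM in replicate 2 and 1.79 TPM in replicate 1. The reads behind these values numbered 1132 in replicate 2 and 77 in replicate 1. The credibility intervals of 22.8 to 26.3 TPM in replicate 2 and 1.35 to 3.16 TPM in replicate 1 were far apart. The mean of 13.2 ± 16.2 TPM (SD, n = 2) therefore describes neither library.

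The scaled read ratio of Cnpy1 was 15.3 (95% counting interval 12.1 to 19.5). Of 17653 genes averaging 10 or more reads and with reads in replicate 1, 0.0283% had a higher one. The central 95% of these genes ran from 0.460 to 1.56 with a median of 0.982. Genes with 0 reads in replicate 1 have no such ratio and were left out, while genes with 0 reads in replicate 2 were kept at a ratio of 0. On the log2 ratio of TPM + 1, Cnpy1 was at 3.20, rank 2 among 13223 genes averaging 100 or more reads, where all genes averaging 1 TPM or more had a median of 0.05 and an SD of 0.35. En1 was at 0.95 on the same scale, rank 11. Pax8 was at -0.40, Pax2 at -0.19, Pax5 at -0.18, Gbx2 at -0.01, Otx2 at 0.18 and En2 at 0.77, where the pseudocount of 1 understates the change of low genes.

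**Figure D2:**
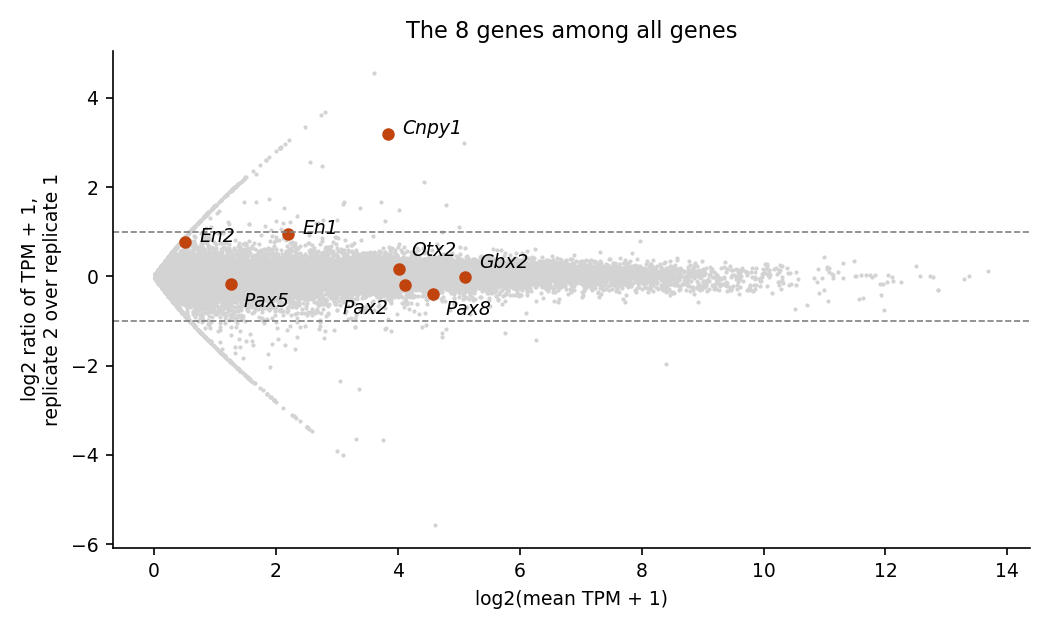
Log2 ratio of TPM + 1, replicate 2 over replicate 1, against the log2 of mean TPM + 1 for all genes with any reads (grey points) and the 8 genes (orange points), with dashed lines at a 2-fold difference in either direction. Cnpy1 lies at 3.20, En1 at 0.95 just inside the dashed line, and the other 6 genes between -0.40 and 0.77.

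Among the 7 members that averaged 1 TPM or more, 1 (Cnpy1) was 2-fold or more apart on the TPM + 1 scale, where 1.53% of all 15661 genes at that level were, and 0.581% of them with the higher value in replicate 2. En1, at 0.95, lay just under that fold. Credibility intervals were separate for 3 of the 7, with 2 (En1 and Cnpy1) higher and 1 (Pax2) lower in replicate 2. The same held for 24.4% of all these genes, 17.9% higher and 6.5% lower in replicate 2. En2, whose mean lay under 1 TPM, was a further gene with separate intervals. Since the ratio was among the values the genes were selected on, nothing is read from these shares.

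Cnpy1 and En2 lie next to each other on chromosome 5, 28653 bp apart and on opposite strands. Cnpy1 stood at 31.2 times En2 in replicate 2 and 35.8 times in replicate 1 on the TPM scale, so the ratio between these neighbours was similar in both libraries, between which their scaled reads differed 15.3-fold (Cnpy1) and 13.8-fold (En2). The En2 value in replicate 1 rests on the 4 reads given above. No other pair of members lies within 50 kb.

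The Cnpy1 annotation has 5 transcripts, and 4 of them begin within 500 bases of the internal or the upstream RefSeq start, by which they were grouped. The other, Cnpy1-203, had 0.20 TPM in replicate 2 and 0 TPM in replicate 1. Cnpy1-202, grouped with the internal start, begins at chr5:28210022, outside the window shown above. Transcripts of the internal start (Cnpy1-201, Cnpy1-202 and Cnpy1-204) summed to 14.3 TPM in replicate 2 and 1.06 TPM in replicate 1. The transcript of the upstream start (Cnpy1-205) had 10.2 TPM in replicate 2 and 0.73 TPM in replicate 1. The internal start held 57.9% of Cnpy1 TPM in replicate 2 and 59.2% in replicate 1 and the upstream start 41.2% and 40.8%, but 0.34 of the 1.06 TPM in replicate 1 came from Cnpy1-204, on 1 read. In estimated reads, the internal start had 546 in replicate 2 and 31.4 in replicate 1, and the upstream start had 577 and 45.6. Both starts were thus higher in replicate 2. Within the internal start, Cnpy1-202 had 12.8 TPM in replicate 2 and 0.63 TPM in replicate 1, and Cnpy1-201 had 1.45 and 0.09 TPM. Cnpy1-204, a model of 238 nt, had 0 TPM in replicate 2. Reads shared between transcripts were divided by the authors' estimate, so these shares are less certain than gene totals.

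Otx2 has 8 annotated transcripts, which were grouped by the same rule of 500 bases. Those of the proximal start (Otx2-201 and Otx2-203) summed to 7.94 TPM in replicate 2 and 8.74 TPM in replicate 1. Those of the upstream start (Otx2-202, Otx2-205, Otx2-207 and Otx2-208) summed to 8.24 TPM in replicate 2 and 4.98 TPM in replicate 1. The upstream start thus held 50.9% of Otx2 TPM in replicate 2 and 35.1% in replicate 1. The credibility intervals of its leading transcript, Otx2-202, were 3.45 to 6.89 TPM in replicate 2 and 1.62 to 4.63 TPM in replicate 1 and overlapped. No interval was available for the start as a whole, so whether this shift exceeded the uncertainty of the estimate was not tested.

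By TPM, the transcripts of the other genes kept their leading form in both libraries. Gbx2-201, which codes for protein, held 77.3% of Gbx2 TPM in replicate 2 and 71.1% in replicate 1, with 25.7 and 23.8 TPM, and the rest lay in the retained-intron transcript Gbx2-202. Pax2-203 had 7.47 TPM in replicate 2 and 9.35 TPM in replicate 1, Pax2-201 had 7.06 and 6.61 TPM, and the shorter Pax2-202 had 0.67 and 1.58 TPM. By these estimates, Pax2-203 and Pax2-202 were lower in replicate 2. The intervals were separate for Pax2-203, and those of Pax2-202 overlapped, at 0.344 to 1.10 TPM in replicate 2 and 1.07 to 2.09 TPM in replicate 1. En1 and En2 have 1 annotated transcript each.

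Pax8-201, the leading coding form, had 15.3 TPM in replicate 2 and 17.5 TPM in replicate 1. The retained-intron transcript Pax8-206 had 1.11 TPM in replicate 2 and 2.40 TPM in replicate 1, with separate intervals of 0.841 to 1.35 and 1.99 to 2.70 TPM. Pax8-205, a retained-intron model of 345 nt, had 0 TPM in replicate 2 and 3.23 TPM in replicate 1, from 17 reads, and Pax8-207 had 2.09 and 1.41 TPM. Without transcripts under 400 nt, an alternative chosen after seeing the data, Pax8 stood at 19.6 TPM in replicate 2 and 23 TPM in replicate 1, and its log2 ratio was -0.22 in place of -0.40. Of the 20 Pax5 transcripts, 15 were at 0 in both libraries, and the leading ones, Pax5-208, Pax5-210 and Pax5-211, had between 0.25 and 0.7 TPM. By posterior mean the leading Pax5 form differed, with Pax5-219 at 14.64% and Pax5-208 at 9.69% in replicate 2, and 12.44% and 14.75% in replicate 1.

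Over the 8 genes, 48 transcripts were listed and 15 averaged 1 TPM or more. Intervals were separate for 5 of these 15, against 13.4% of all 34374 transcripts at that level. Those higher in replicate 2 were Cnpy1-202, Cnpy1-205 and En1-201, and those lower in replicate 2 were Pax2-203 and Pax8-206.

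**Figure D3:**
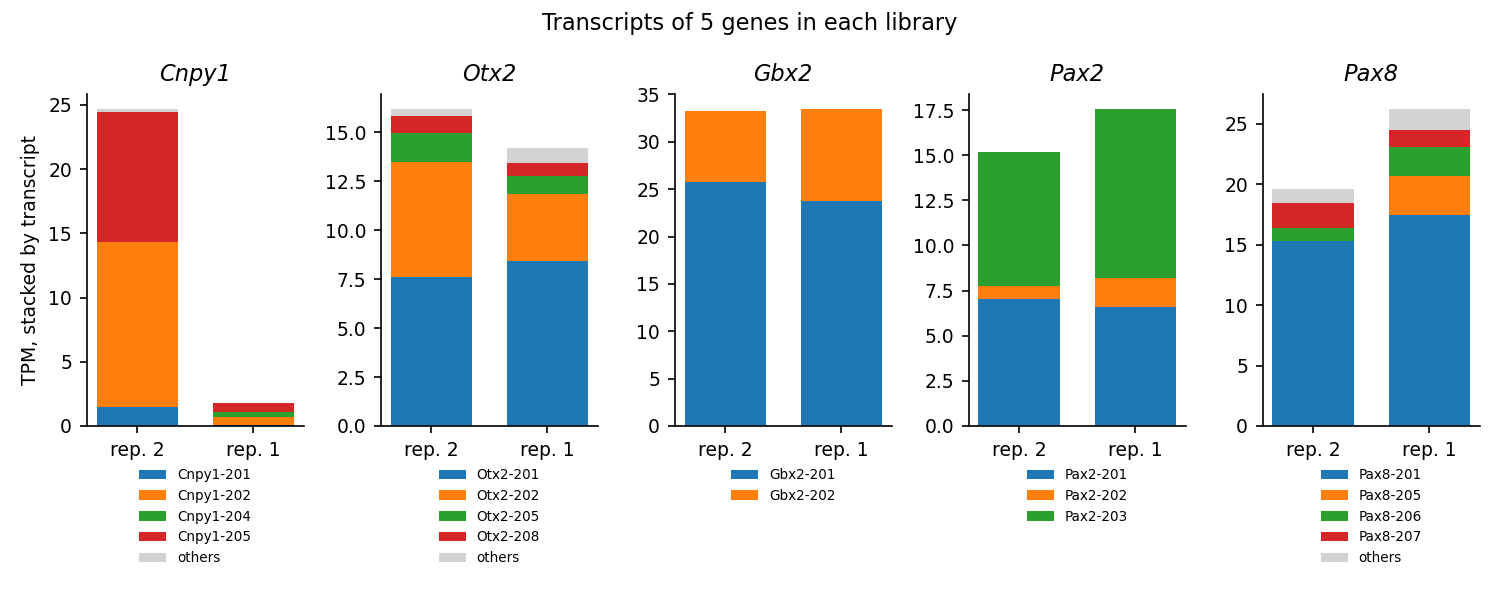
TPM of the transcripts of 5 genes, stacked, in replicate 2 (left bar) and replicate 1 (right bar), each gene on its own axis from 0, with transcripts under 5% of the gene in both libraries pooled as others. The Cnpy1 bar is high in replicate 2 (24.7 TPM) and low in replicate 1 (1.79 TPM), and Gbx2 is near 33 TPM in both.

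The genes around the members were at low levels except Agap1 and Zcchc7. Within 50 kb of a member or overlapping it, 28 other annotated genes were found, and 20 had a row in the deposited tables, 10 of them overlapping a member and 8 of these on the other strand. The strand setting of the counting is not given in the sources used here, so reads of a member and of a gene on its other strand cannot be told apart. Opposite Gbx2, D130058E05Rik had 2.43 TPM in replicate 2 and 2.90 TPM in replicate 1. Opposite Otx2, Otx2os1 had 1.10 TPM in replicate 2 and 1.25 TPM in replicate 1. Both lay far below the genes they overlap.

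Across the other strand of Pax5, Gm12462 had 0.72 TPM in replicate 2 and 0.68 TPM in replicate 1, 5730488B01Rik had 1.04 and 0.59 TPM, and 4930517J16Rik had 0.31 and 0.48 TPM. Here the overlapping genes were of the same order as Pax5 itself, whose reads are uncertain to that extent. Opposite Pax2, Gm20395 had 1.04 TPM in replicate 2 and 1.66 TPM in replicate 1, and 1700039E22Rik had 0.23 and 0.21 TPM. Opposite Pax8, Gm13415 had 0.23 TPM in replicate 2 and 0.31 TPM in replicate 1.

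Downstream of En1, 13748 bp away on the same strand, the non-coding RNA gene 2610027F03Rik had 24 reads in replicate 2 and 0 reads in replicate 1. With a floor of 3 reads in place of the 0, its ratio was 8.31, and the lower end of the 95% counting interval was 6.26. This gene was thus higher in the same library as En1. Agap1, near Gbx2, had 31.2 TPM in replicate 2 and 29 TPM in replicate 1, and Zcchc7, near Pax5, had 26.8 and 29.7 TPM, without the differences seen for Cnpy1 or En1. Of the other neighbours with a row, Psd4 had 1.11 TPM in replicate 2 and 0.34 TPM in replicate 1, although its reads ran the other way at 31 and 43, Asb18 had 0.24 and 0.52 TPM, and Gm12463, Gm13418, Mir6405, Mir5120, Gm23469, Gm25380 and Gm27193 had at most 4 reads in either library.

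The rest of the boundary pathway was described from 4 lists of 27 measured genes, with 23 at 1 TPM or more in both libraries. On the log2 ratio of TPM + 1, 1 of them (Fgf17) was 2-fold higher in replicate 2 and 0 were 2-fold lower, and the median was 0.10, against 0.05 over all genes at 1 TPM or more. Intervals were separate for 10 of the 27 with the higher value in replicate 2 and for 2 with the lower, against 17.9% and 6.5% of all genes averaging 1 TPM or more. Higher values in replicate 2 were thus also the more common direction among genes at large. The 27 also held genes averaging under 1 TPM, which that comparison leaves out, among them Fgf17 (0.80 TPM) and Otx1 (0.805 TPM) of the 10. The lists, like the members, were selected with results from these libraries known.

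Among the secreted ligands of the isthmus, Fgf8, its central organiser, was low, with 4 reads in replicate 2 and 3 reads in replicate 1. Its level was 0.21 TPM in replicate 2 and 0.15 TPM in replicate 1. The credibility intervals, 0.255 to 1.03 TPM in replicate 2 and 0.196 to 0.862 TPM in replicate 1, lay above these values. Fgf17, a close relative of Fgf8, had 1.45 TPM in replicate 2 and 0.15 TPM in replicate 1, from 45 and 5 reads. Its scaled read ratio was 9.35 (95% counting interval 3.73 to 30.2), and it was thus higher in the same library as Cnpy1, En1 and En2.

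Fgf15 had 13.6 TPM in replicate 2 and 9.67 TPM in replicate 1, with separate intervals. Fgf18, like Fgf17 a close relative of Fgf8, had 7.29 TPM in replicate 2 and 7.96 TPM in replicate 1. Wnt1, the ligand of the midbrain side, had 1.53 TPM in replicate 2 and 1.64 TPM in replicate 1. The intervals of Fgf8, Fgf18 and Wnt1 overlapped between the libraries, and the ligands with separate intervals, Fgf15 and Fgf17, were both higher in replicate 2.

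The receptors differed little or in opposite directions. Fgfr1 had 34.9 TPM in replicate 2 and 32.6 TPM in replicate 1, and Fgfr3 had 37.9 and 36.2 TPM, with overlapping intervals. Fgfr2 had 24.3 TPM in replicate 2 and 34.4 TPM in replicate 1, and the decoy receptor Fgfrl1 had 6.89 and 4.81 TPM, both with separate intervals. All 10 targets and feedback inhibitors of FGF signalling were at 1 TPM or more in both libraries, 0 were 2-fold apart, and the median log2 ratio was 0.18. Flrt3 had 37.4 TPM in replicate 2 and 32.4 TPM in replicate 1, the phosphatase gene Dusp6 had 25 and 21.4 TPM, and the ETS factor Etv5 had 21.8 and 16.8 TPM, all with separate intervals. Spry2, a feedback inhibitor, had 30.3 TPM in replicate 2 and 27.7 TPM in replicate 1. Intervals were separate for 3 of the 10, and the ratios were small beside that of Cnpy1.

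Of 8 other regulators of the boundary, 6 were at 1 TPM or more in both libraries and 0 were 2-fold apart. The homeobox gene Irx2 had 26.4 TPM in replicate 2 and 19.2 TPM in replicate 1, and the corepressor Tle4 had 19.9 and 19.1 TPM. Lmx1b had 5.37 TPM in replicate 2 and 6.87 TPM in replicate 1. Otx1, the paralog of Otx2, was picked out after its values were seen. It had 1.31 TPM in replicate 2 and 0.30 TPM in replicate 1, from 75 and 17 reads, a scaled read ratio of 4.59 (95% counting interval 2.68 to 8.28).

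The other canopy and Pax genes had smaller differences than Cnpy1. Cnpy2 had 109 TPM in replicate 2 and 123 TPM in replicate 1, Cnpy3 had 48.8 and 47.4 TPM, and Cnpy4 had 25.4 and 23.3 TPM. Of 6 other Pax genes, Pax6 had 22.7 TPM in replicate 2 and 21.2 TPM in replicate 1, and Pax3 had 6.36 and 6.5 TPM. Pax7 had 0.50 TPM in replicate 2 and 0.19 TPM in replicate 1, from 49 and 23 reads, and Pax1, Pax4 and Pax9 had at most 2 reads in either library.

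**Figure D4:**
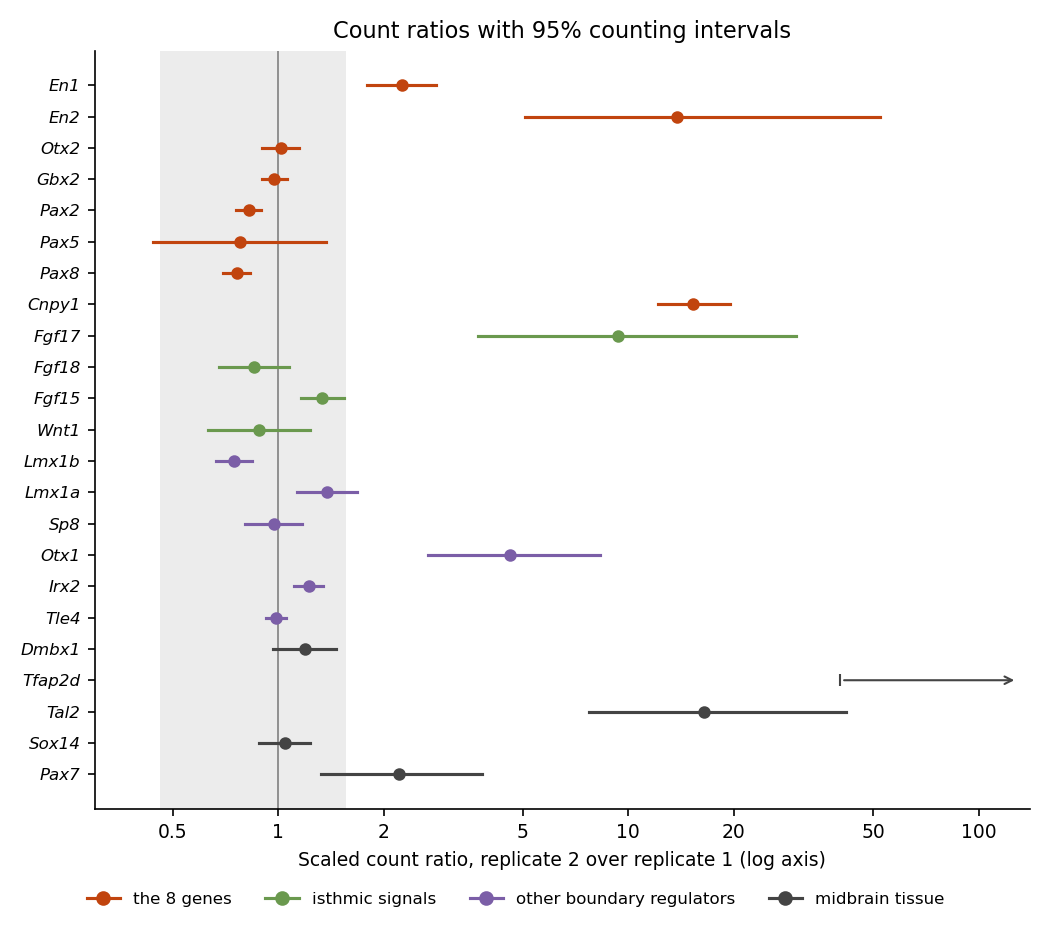
Ratio of scaled reads, replicate 2 over replicate 1, on a log axis with 95% counting intervals (lines), for the 8 genes and for the genes shown from 3 lists, with at least 20 reads over both libraries; the grey band is the central 95% of all genes (0.460 to 1.56) and the arrow starts at the bound set by a floor of 3 reads for a gene with 0 reads in replicate 1. Cnpy1, En2, En1, Fgf17, Otx1, Tal2, Pax7 and Tfap2d lie right of the band, and Gbx2, Otx2, Pax2, Pax5 and Pax8 lie inside it.

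Markers of midbrain tissue, which adjoins the dissected hindbrain, moved with Cnpy1 and the engrailed genes. The 7 markers summed to 18.4 TPM in replicate 2 and 11.4 TPM in replicate 1, 3 of them were at 1 TPM or more in both libraries, and the median log2 ratio was 0.33. Tfap2d, an AP-2 factor of the midbrain, had 116 reads in replicate 2 and 0 reads in replicate 1. With a floor of 3 reads in place of the 0, the ratio was 40.2, and the lower end of the 95% counting interval was 32.2. Tal2, needed for inhibitory neurons of the midbrain, had 111 reads in replicate 2 and 7 reads in replicate 1, a scaled ratio of 16.5 (95% counting interval 7.74 to 41.9).

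Other midbrain markers were present in both libraries. Sox14 had 8.10 TPM in replicate 2 and 7.90 TPM in replicate 1, and Dmbx1 had 2.68 and 2.15 TPM, while Pitx3 was at 0 in both. Of the 7 markers, 2 (Tfap2d and Tal2) were 2-fold higher in replicate 2. The part of midbrain tissue in the ratios of Cnpy1, En1, En2 and Fgf17 was not tested.

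Markers of other tissues that use these genes did not move in 1 direction. The 8 choroid plexus markers, relevant to Otx2, summed to 1250 TPM in replicate 2 and 2026 TPM in replicate 1, with a median log2 ratio of -0.54. The carrier protein gene Ttr alone had 1094 TPM in replicate 2 and 1825 TPM in replicate 1, against the Otx2 values of 16.2 TPM in replicate 2 and 14.2 TPM in replicate 1. Intervals were separate for 5 lower genes and for 1 higher gene, Kl. The part of the choroid plexus in the Otx2 values was not tested.

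For the inhibitory lineage of the cerebellum, relevant to Pax2, the 8 markers summed to 190 TPM in replicate 2 and 159 TPM in replicate 1, with a median of 0.25. Gad1, a GABA synthesis enzyme, had 94.3 TPM in replicate 2 and 69.4 TPM in replicate 1, Lhx1 had 37.8 and 34.5 TPM, Gad2 had 27.3 and 26.3 TPM, and Lhx5 had 16.9 and 18.7 TPM. Pax2 was lower in replicate 2, where 7 of the 8 markers were higher (6 of 8 with TMM scaling). The 6 rhombic lip and granule cell genes (Atoh1, Barhl1, Pax6, Mab21l1, Zic1 and Neurod1) had a median of 0.11, with 0 of them 2-fold apart.

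Of 6 genes listed for interneurons of the dorsal inhibitory and V1 classes and neighbouring domains, all were at 1 TPM or more in both libraries and the median was 0.06. Lbx1 had 14.9 TPM in replicate 2 and 16.1 TPM in replicate 1, Slc6a5 had 10.9 and 9.17 TPM, Evx1, which marks the V0 class instead, had 2.76 and 3.20 TPM, and Foxd3 had 1.47 and 1.22 TPM. Dbx1, a homeobox gene of the progenitors of V0 neurons, had 10.4 TPM in replicate 2 and 1.06 TPM in replicate 1, from 405 and 45 reads. Its scaled ratio was 9.35 (95% counting interval 6.86 to 13), and it too was higher in the library with more Cnpy1 and En1. Of the 5 genes of the otic epithelium, where Pax2 and Pax8 are also active, 0 reached 1 TPM in either library, with a highest value of 0.57 TPM, of Tecta in replicate 1. The hindbrain markers had a median log2 ratio of -0.17, with 0 of 9 higher in replicate 2, or 1 of 9 under scaling to spike-ins, and 2 with separate intervals, both lower. The part of these cell types in the members' values was not tested.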

How the data were processed

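Total RNA of 2 mouse hindbrains was sequenced by the submitters, who assigned reads to mm10 with annotation M4 separately per replicate, per the file headers and the accompanying library descriptions. No aligner, quantification tool, version or strand setting is given in the sources used here. Expected counts, as deposited, are the authors' estimates of reads for a gene or transcript, without normalisation and not always whole. For TPM, the authors scaled reads by length and over all features, including spike-ins, which held 7.72% of TPM in replicate 2 and 8.15% in replicate 1. For FPKM, the authors scaled reads by length and by the library's total. Credibility bounds and posterior means, as deposited, served as score values, for intervals whose level the files do not state. The deposited isoform percentages (percent) were read as an alternative to shares of TPM. The deposited effective lengths were not used.

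Of the gene identifiers, 42462 matched a symbol once the version was removed and 884 did not. Coordinates and transcript names came from GENCODE M21 on GRCm38, the assembly also called mm10, whose gene models can differ from M4. Promoter windows came from the RefSeq table. The members, the gene lists and the call rules were chosen with earlier results of these data known. No test was run, since 2 replicates of 1 group allow none between conditions. Detection was set at 1 TPM in both libraries and log2 values used a pseudocount of 1. Scaled ratios divide rounded counts by the gene total of the library, with exact (Clopper-Pearson) 95% intervals, a calculation tested on simulated data. The simulated counts held counting error only, so they check the calculation and not the spread between samples or the division of shared reads. Named genes were all members, every gene of lists of up to 6 genes, and otherwise the 4 with the highest mean TPM and any 2-fold apart. Every gene within 50 kb and every transcript holding at least 5% of its gene were also taken. Some genes so taken are not reported here. Exceptions are Otx1, Egr2, Pitx3 and Kl, picked after their values were seen.

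Alternatives were FPKM, the posterior mean, TPM without spike-in and mitochondrial RNA, other detection limits, filters and pseudocounts, spike-in scaling, size factors from DESeq2 1.42.0, TMM factors from edgeR 4.0.16 and each replicate alone. An alternative chosen after seeing the data left out transcripts under 400 nt. Software was matplotlib 3.10.9, pandas 2.3.3, scipy 1.17.1 and numpy 2.4.6 under Python 3.11.15, and R 4.3.3.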

Additional observations from a re-analysis of the deposited data

How the results depend on the processing

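No paired analysis was possible because both libraries belong to 1 group. Cnpy1, En1, En2 and Otx2 kept the higher value in replicate 2, and Pax2, Pax5 and Pax8 the lower, under every pseudocount, unit and scaling tried, while Gbx2 ran from -0.07 to 0.09 on the log2 scale and changed sign. The log2 ratio ranged from 2.87 to 3.78 for Cnpy1, 0.78 to 1.24 for En1, 0.50 to 3.74 for En2 and -0.46 to -0.22 for Pax8. The members 2-fold or more apart numbered 1 with a pseudocount of 1 and with the posterior mean, 3 with pseudocounts of 0.1 and 0.01, TMM factors or spike-in scaling, and 2 with DESeq2 size factors. Those with separate intervals numbered 4 in all and 2 with a mean of at least 10 TPM, since En1 and En2 lie below it. Over all 43346 genes, 4049 had separate intervals with no filter on level, many of these genes having few or no reads. Among the 15661 genes averaging 1 TPM or more, 24.4% did. With a mean of at least 10 TPM, 3106 genes did, out of a smaller total that is not given here. No share is therefore set beside the 2 members at that level. Of the 96 listed genes, 4 were 2-fold or more apart, and 11 with a pseudocount of 0.1. The members at 1 TPM or more in both libraries numbered 7, and 7 with either replicate alone, 5 at a limit of 2 TPM and 6 by FPKM. All genes 2-fold or more apart numbered 240 of 15661 in the TPM comparison with a pseudocount of 1, 409 with one of 0.1 and 445 with one of 0.01. They numbered 139 with the posterior mean, and 41 to 42 on the scale of scaled counts, whichever factors were used. The cause of these different numbers was not tested. The mean level of Pax5 was 1.41 TPM, or 3.33 by posterior mean, and Pax5-208 held 41.2% of it, or 12.2% by posterior mean; the cause was not tested. Depth limits the values of En2 and Pax5, which rest on 4 to 53 reads a library.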

Other observations

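Protein-coding genes with differences like that of Cnpy1 were picked out after their values were seen, with no test. Among 15000 protein-coding genes averaging 10 or more reads, the lower end of the 95% counting interval of the scaled read ratio reached 3-fold for 14 genes higher in replicate 2 and 10 lower. Of the 14, 10 also had separate credibility intervals, namely Tfap2d, Neurog1, Cnpy1, Scn10a, Tal2, Dbx1, En2, Otor, Fgf17 and Six3. Neurog1, a proneural factor, had 66 reads in replicate 2 and 0 reads in replicate 1. With a floor of 3 reads in place of the 0, its ratio was 22.9, and the lower end of the counting interval was 18.1. Six3, a forebrain and eye field factor, had 19 reads in replicate 2 and 1 read in replicate 1, and Otor, first known from the inner ear, had 34 and 2 reads.

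Of the 10 lower genes, 4 had separate intervals, namely C2cd6, Capn11, 3110070M22Rik and Hbb-y. C2cd6 had 0 reads in replicate 2 and 153 reads in replicate 1, and Capn11, a calpain protease gene, had 1 and 95 reads. Hbb-y, the embryonic beta-like globin of primitive red blood cells, had 1503 reads in replicate 2 and 6421 reads in replicate 1, a scaled ratio of 0.243 (95% counting interval 0.230 to 0.257). None of the 8 boundary genes was among those lower in replicate 2.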
